A study of Mus musculus with 6 samples.

Results

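The genes described here are 10 known regulators or markers of the epithelial-mesenchymal transition (EMT), chosen by symbol with earlier results of these data known. They are the transcription factors Snai1, Snai2, Zeb1, Zeb2, Twist1, Twist2 and Prrx1, the filament gene Vim, and the splicing regulators Esrp1 and Esrp2. All 10 were found among the 24982 genes listed for each library, and 6 of them were among the 12409 genes with enough coverage to be tested. The libraries came from keratinocyte lines of C57BL/6 mice, established from neonatal skin and not treated. The KSFM-Ca2+ cells were derived and kept in a low-calcium keratinocyte serum-free medium (KSFM). The DKSFM cells are descendants of the KSFM-Ca2+ cells that were adapted to defined KSFM (DKSFM), a medium with more calcium, so calcium, the rest of the medium and adaptation cannot be told apart in this comparison. Poly(A) RNA of each line was sequenced in 3 replicate libraries. The sources do not say what a replicate was, so the p-values measure the spread between these libraries, which may be technical.

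In an EMT, epithelial cells give up cell-cell junctions and apical-basal polarity and gain motility and a mesenchymal cytoskeleton. Factors of the Snail, ZEB and Twist families repress junction genes such as Cdh1, while ESRP proteins and factors of the Grainyhead and OVOL families hold the epithelial state. Skin keratinocytes normally express Snai2 in their basal layer, and EMT factors are studied in the skin for wound closure and tumour spread.

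The deposited unit was the mean read coverage per base of each gene, written to 1 decimal, so that levels of different genes can be compared per length. Total coverage over all genes was 1601676, 1238411 and 1057750 in KSFM-Ca2+ replicates 1 to 3 and 1174348, 1239438 and 1170675 in DKSFM replicates 1 to 3. Values below are coverage normalized between libraries, given for replicates 1 to 3 in that order or as mean ± SD (n = 3). Genes were called higher or lower at an adjusted p under 0.01 in limma and a change of at least 2-fold. Fold changes are DKSFM over KSFM-Ca2+ on the log2(coverage + 0.1) scale, which understates the change of genes with low coverage.

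Of the 6 tested regulators, 2 were called higher in the DKSFM cells (Snai2 and Zeb2) and 1 was called lower (Twist2). Among all tested genes, 13.2% were called higher and 10.5% were called lower. All 6 passed the adjusted p and had libraries that did not overlap between the lines, as did 72.6% and 83.3% of all tested genes. An unadjusted p under 0.05 was found for all 6 and for 81.9% of all tested genes. The other 3 tested regulators, Twist1, Esrp1 and Esrp2, differed by less than 2-fold. Twist2 passed the filter on low coverage only through the KSFM-Ca2+ libraries, so it had to differ to be tested. The same holds for 491 of the 1636 genes called higher and 273 of the 1307 called lower, each of which had no library at or above 0.5 in the other line. Snai1, Zeb1, Prrx1 and Vim had too little coverage to be tested in either line. The plot of coverage by library shows these levels.

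**Figure D1:**
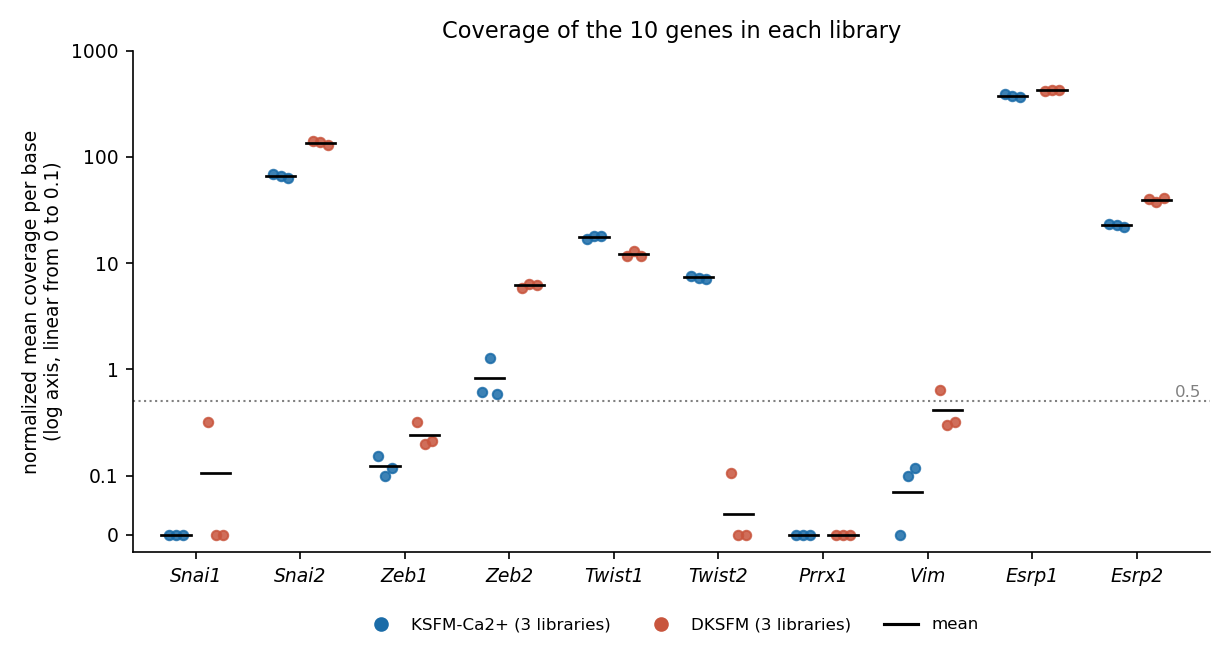
Normalized mean coverage per base (log axis, linear below 0.1) of the 10 genes in 3 KSFM-Ca2+ libraries (blue) and 3 DKSFM libraries (red), with black bars at the mean and a dotted line at the filter value of 0.5. Snai2 and Zeb2 sit higher in the DKSFM libraries, Twist2 is at or near 0 there, and Esrp1 is the highest of the 10 genes in both lines.

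The Snail family consists of zinc finger repressors that bind E-box sequences. Snai2, which encodes Slug, had a coverage of 68.7, 66.4 and 63.8 in the KSFM-Ca2+ libraries and of 141, 137 and 130.0 in the DKSFM libraries. Every DKSFM library lay above every KSFM-Ca2+ library. Snai2 rose by 1.04 on the log2 scale (95% interval 0.94 to 1.14, adjusted p = 1.41e-07), a ratio of means of 2.05. The interval corresponds to a fold of 1.92 to 2.20 and so reaches below the 2-fold threshold on which the call rests. In bulk RNA, fewer cells expressing a gene and less RNA per cell cannot be told apart, here and for every gene below. Snai2 ranked above 72.4% of tested genes in the KSFM-Ca2+ cells and above 85.9% in the DKSFM cells.

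Snai1, which encodes Snail, was listed at 0 in every KSFM-Ca2+ library and in DKSFM replicates 2 and 3, and its normalized coverage was 0.318 in DKSFM replicate 1. That single value corresponds to about 5.7 reads, which may be too many, because such estimates summed over all genes exceed the sequencing depth given by the authors. The third paralog, Snai3, had a coverage of 13.4, 12.8 and 14.6 in the KSFM-Ca2+ libraries and of 1.49, 1.50 and 1.27 in the DKSFM libraries. It fell by 3.17 on the log2 scale (standard error 0.10, adjusted p = 3.83e-08), with no overlap between the lines. Summed over the 3 paralogs, Snail family coverage was 79.9 ± 1.93 in the KSFM-Ca2+ cells and 137.6 ± 5.94 in the DKSFM cells. Snai2 made up 83.0% ± 1.40 of this sum in the KSFM-Ca2+ cells and 98.9% ± 0.148 in the DKSFM cells, and Snai3 made up 17.0% ± 1.40 and 1.03% ± 0.0567.

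The ZEB proteins carry zinc finger clusters at both ends and a homeodomain between them. Zeb2 had a coverage of 0.610, 1.29 and 0.590 in the KSFM-Ca2+ libraries and of 5.84, 6.40 and 6.25 in the DKSFM libraries. The lowest DKSFM library was well above the highest KSFM-Ca2+ library. Zeb2 rose by 2.83 on the log2 scale (95% interval 2.23 to 3.43, adjusted p = 1.56e-05), and the ratio of the means was 7.44. Its level in the DKSFM cells was still modest, above 23.5% of tested genes. Zeb1 was much lower. Its coverage was 0.152, 0.0989 and 0.118 in the KSFM-Ca2+ cells and 0.318, 0.200 and 0.212 in the DKSFM cells. The DKSFM libraries were the higher ones, but all 6 values lay within a few rounding steps of 0 and were not tested. Zeb2 made up 85.4% ± 6.67 of the summed ZEB coverage in the KSFM-Ca2+ cells and 96.2% ± 1.17 in the DKSFM cells. The antisense gene Zeb2os overlaps Zeb2, and reads were aligned with a strand setting, but whether the deposited coverage was split by strand was not tested.

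miRNAs of the miR-200 family and miR-205 are known to repress Zeb1 and Zeb2. Their mature sequences are shown because Zeb2 was the regulator with the largest rise (RefSeq, GRCm38.p6). Capitals mark the seed, bases 2 to 8. The first group shares the seed AAUACUG, the second the seed AACACUG, and miR-205-5p has the seed CCUUCAU.
mmu-miR-200b-3p: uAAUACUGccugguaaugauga
mmu-miR-200c-3p: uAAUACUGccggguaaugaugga
mmu-miR-429-3p: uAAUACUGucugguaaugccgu
mmu-miR-200a-3p: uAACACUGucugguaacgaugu
mmu-miR-141-3p: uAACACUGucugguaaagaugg
mmu-miR-205-5p: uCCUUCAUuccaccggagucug

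Poly(A) libraries do not measure mature miRNAs, so only coverage of the short precursor genes was available. Mir200a, Mir200b and Mir429 were listed at 0 in all 6 libraries, and Mir200c and Mir141 were above 0 in KSFM-Ca2+ replicate 1 only. Of the 6 precursor genes in the files, 1 was tested. This was Mir205, with a coverage of 0.762, 0 and 1.53 in the KSFM-Ca2+ libraries and of 3.18, 1.10 and 1.0601 in the DKSFM libraries. The lines overlapped, and the difference did not pass the test (1.67 on the log2 scale, standard error 0.96, adjusted p = 0.137). The host gene Mir205hg is not analysed here.

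Twist1 and Twist2 encode basic helix-loop-helix (bHLH) factors of mesoderm and dermis. Twist2 had a coverage of 7.62, 7.32 and 7.08 in the KSFM-Ca2+ libraries, whereas the DKSFM libraries had 0.106, 0 and 0. The KSFM-Ca2+ libraries were close to each other, and the only DKSFM library above 0 was at a single rounding step. The mean of the KSFM-Ca2+ libraries was 69.1 times the value of that DKSFM library. Twist2 fell by 5.87 on the log2 scale (95% interval -6.55 to -5.18, adjusted p = 4.34e-07 in limma). This size depends on the pseudocount because the DKSFM libraries were at or near 0 (-3.01 with a pseudocount of 1). Since Twist2 passed the filter only through the KSFM-Ca2+ libraries, it had to differ to be tested, and the p-value is no separate support.

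Twist1 had a coverage of 16.8, 17.9 and 17.9 in the KSFM-Ca2+ libraries and of 11.6, 13.1 and 11.8 in the DKSFM libraries. All DKSFM libraries were below all KSFM-Ca2+ libraries, by less than 2-fold (log2 fold change -0.53, 95% interval -0.68 to -0.38, adjusted p = 9.58e-05). Both paralogs were therefore lower in the DKSFM cells, and their summed coverage was 24.9 ± 0.389 in the KSFM-Ca2+ cells and 12.2 ± 0.791 in the DKSFM cells. Twist2 made up 31.2%, 29.0% and 28.3% of the sum in the KSFM-Ca2+ libraries and 0.909%, 0% and 0% in the DKSFM libraries. The bHLH parts of the paralogs are alike, and how reads that match both were assigned is not stated in the sources used here. Prrx1, a homeobox factor of mesenchyme, was listed at 0 in all 6 libraries.

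Vim encodes vimentin, the intermediate filament protein of mesenchymal cells, and is an outcome of the EMT more than a regulator. Its coverage was 0, 0.0989 and 0.118 in the KSFM-Ca2+ libraries and 0.637, 0.2998 and 0.318 in the DKSFM libraries. The DKSFM libraries were the higher ones, yet in both lines Vim was lower than nearly all tested genes, above 1.75% of them in the KSFM-Ca2+ cells and 2.67% in the DKSFM cells. A rounding step of 0.1 is worth about 2.58 reads for a transcript of this length. The listed values correspond to about 0 to 2.6 reads per KSFM-Ca2+ library and 7.7 to 15.5 reads per DKSFM library, with the same doubt as for Snai1.

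Esrp1 and Esrp2 encode RNA-binding proteins that direct epithelial splice forms. Esrp1 had a coverage of 388, 374 and 371 in the KSFM-Ca2+ libraries and of 418, 426 and 429.9 in the DKSFM libraries. The DKSFM libraries were above the KSFM-Ca2+ libraries by a small margin (log2 fold change 0.17, 95% interval 0.11 to 0.24, adjusted p = 0.000583). Esrp1 was above 95.4% of tested genes in the KSFM-Ca2+ cells and 96.2% in the DKSFM cells. Esrp2 had a coverage of 23.5, 23.0 and 21.7 in the KSFM-Ca2+ libraries and of 39.8, 37.7 and 40.7 in the DKSFM libraries. The lines did not overlap, and the DKSFM mean was 1.73 times as high, short of 2-fold (log2 fold change 0.79, 95% interval 0.68 to 0.91, adjusted p = 1.59e-06). Esrp2 made up 5.68% ± 0.138 of the summed ESRP coverage in the KSFM-Ca2+ cells and 8.49% ± 0.321 in the DKSFM cells. The annotation places Nfatc3 and 1810019D21Rik on the opposite strand within the Esrp2 locus, so some of its coverage could belong to them if it was not split by strand.

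The balance within a family was compared by an exact permutation test (two-sided, 3 against 3 libraries) of the log2 ratio of paralogs, with the pseudocount of 0.1 added to each. The mean log2 ratio of Twist2 to Twist1 was -1.25 in the KSFM-Ca2+ cells and -6.59 in the DKSFM cells, where Twist2 was at or near 0, so that the pseudocount sets this value. The ratio of Snai3 to Snai2 was -2.28 in the KSFM-Ca2+ cells and -6.49 in the DKSFM cells, and that of Esrp2 to Esrp1 was -4.05 and -3.43. For Zeb1 to Zeb2 it was -1.98 and -4.20, with Zeb1 near 0 in all libraries. Each of the 4 ratios separated the lines completely, with an exact p = 0.1, also after Benjamini-Hochberg adjustment over the 4 ratios. This is the smallest p that the design allows, so none could pass 0.05, and Twist2 had entered the test of single genes only by differing between the lines. The ratios are built from the single-gene values above, so their separation is not separate evidence. Among all tested genes, 83.3% had no overlap between the lines by themselves. The plot of paralog shares shows the libraries one by one.

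**Figure D2:**
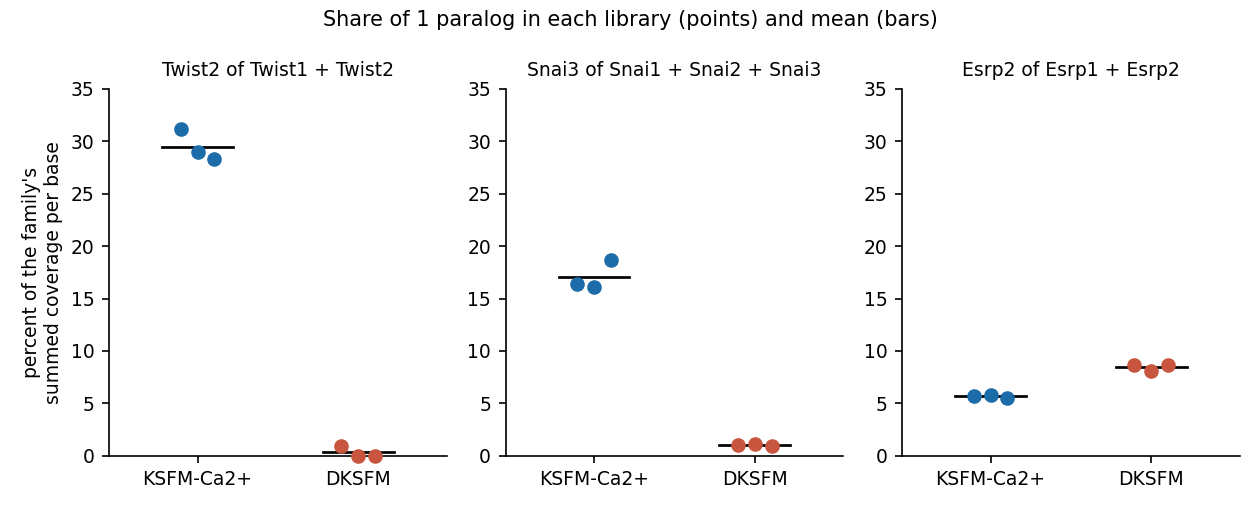
Share of Twist2, Snai3 and Esrp2 in the summed coverage per base of their families (percent, linear axis from 0), for 3 KSFM-Ca2+ libraries (blue) and 3 DKSFM libraries (red), with black bars at the mean. The means were 29.5% and 0.303% for Twist2, 17.0% and 1.03% for Snai3, and 5.68% and 8.49% for Esrp2, with no overlap between the lines in any panel.

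By mean coverage in the KSFM-Ca2+ cells, the order was Esrp1 (377), Snai2 (66.3), Esrp2 (22.7), Twist1 (17.6), Twist2 (7.34), Zeb2 (0.828), Zeb1 (0.123) and Vim (0.0723), with Snai1 and Prrx1 at 0. In the DKSFM cells it was Esrp1 (425), Snai2 (136), Esrp2 (39.4), Twist1 (12.1), Zeb2 (6.16), Vim (0.418), Zeb1 (0.243), Snai1 (0.106) and Twist2 (0.0354), with Prrx1 at 0. Zeb1 and Vim overlapped each other in both lines, as did Snai1 with its neighbours in the DKSFM cells, and the genes above them in each order did not overlap. Among the 3 tested genes whose pattern over the 6 libraries was closest to that of Zeb2 were Stat4 and Cgref1 (distances of 0.19 and 0.36 on the centred log2 scale). Both had a mean of 0.0330 in the KSFM-Ca2+ cells, and in the DKSFM cells Stat4 had 0.726 and Cgref1 had 0.795, so they passed the filter only through the DKSFM libraries. Closest to Twist2 were Gria3, S100a9 and Chn2 (0.60, 0.63 and 0.66), with means of 10.2, 108.5 and 6.69 in the KSFM-Ca2+ cells and 0.0354, 1.91 and 0.0708 in the DKSFM cells. Gria3 and Chn2 passed the filter only through the KSFM-Ca2+ libraries.

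Other genes of the EMT were taken from lists drawn up by role with earlier results of these data known, and they share a few genes. Each list is set against all 12409 tested genes, of which 13.2% were called higher and 10.5% lower, with a median of -0.0012 on the log2 scale. Among other EMT transcription factors, 4 of 13 tested genes were called higher and 3 lower, with a median of 0.50. The genes called higher were Id4, Id2, Foxc1 and Sox4, and those called lower included Snai3 and Foxc2. Id2 and Id4 encode proteins that bind bHLH factors and keep them off DNA, so the list also counts inhibitors of such factors. Id1 and Id3, of the same family, overlapped between the lines and were not called. Id2 had a coverage of 3.53 ± 0.361 in the KSFM-Ca2+ cells and 37.9 ± 1.63 in the DKSFM cells (log2 fold change 3.39), and Id4 had 0.0977 ± 0.0209 and 5.13 ± 0.825 (log2 fold change 4.72). Id4 passed the filter only through the DKSFM libraries and so had to differ to be tested. Foxc2, a forkhead factor of mesenchyme, had 36.8 ± 1.05 in the KSFM-Ca2+ cells and 8.25 ± 0.147 in the DKSFM cells (log2 fold change -2.14). The forkhead paralog Foxc1 went the other way, from 15.2 ± 0.443 to 66.6 ± 0.589.

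Epithelial identity factors are those that maintain epithelial gene expression and oppose EMT factors. Of 11 tested genes, 4 were called higher (Ehf, Grhl1, Klf4 and Grhl3) and 0 lower, with a median of 0.48. Another 5 passed the adjusted p in limma with less than 2-fold, and all 11 had an unadjusted p under 0.05, in either direction, against 81.9% of all tested genes. Grhl1, a Grainyhead factor of desmosome genes, had a coverage of 19.96 ± 1.39 in the KSFM-Ca2+ cells and 85.6 ± 2.41 in the DKSFM cells (log2 fold change 2.10). Ehf, an ETS factor of epithelia, had 8.58 ± 1.07 in the KSFM-Ca2+ cells and 40.4 ± 2.12 in the DKSFM cells (log2 fold change 2.23). For each of the 4, no KSFM-Ca2+ library reached the lowest DKSFM library, and 83.3% of all tested genes likewise had no overlap in either direction.

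Corepressor partners, the chromatin and degradation machinery through which Snail and ZEB proteins act or are turned over, had 0 of 17 tested genes called in either direction by limma. The median was -0.07, 13 of the 17 passed the adjusted p with less than 2-fold, and 15 had an unadjusted p under 0.05. Over all tested genes, 72.6% passed the adjusted p at any size of change and 81.9% had an unadjusted p under 0.05.

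Downstream of the factors, epithelial junction genes had 2 of 21 tested genes called higher (Tjp3 and Dsp) and 3 lower (Epcam, Crb3 and Cldn4), with a median of -0.21. Cdh1, which encodes E-cadherin and is the best known target of these repressors, had a coverage of 159.7, 157 and 162 in the KSFM-Ca2+ libraries and of 144, 144 and 149 in the DKSFM libraries. The DKSFM libraries were lower by a small margin (-0.13 on the log2 scale, standard error 0.03, adjusted p = 0.00343). By qPCR, the authors reported higher Cdh1 expression in the DKSFM cells, which is the opposite direction. They also stained E-cadherin and ZO-1 at cell junctions in the DKSFM cells, but not in the KSFM-Ca2+ cells. In their own RNA-seq, genes of cell-cell adhesion were among those with more transcripts in the DKSFM cells. Coverage of RNA does not show where the proteins lie. Epcam, an epithelial adhesion molecule, had 267, 269.6 and 277 in the KSFM-Ca2+ libraries and 97.0, 95.03 and 95.2 in the DKSFM libraries. It fell in every DKSFM library (-1.50 on the log2 scale, standard error 0.03, adjusted p = 2.81e-09). Crb3, an apical polarity protein, had 148 ± 11.4 in the KSFM-Ca2+ cells and 62.7 ± 4.11 in the DKSFM cells (log2 fold change -1.24). Cldn4, a tight junction claudin, had 856 ± 35.6 and 419.8 ± 10.2 (log2 fold change -1.03). It lost its call with quantile normalization (-0.97) and, by falling just short of 2-fold, without KSFM-Ca2+ replicate 3 and without DKSFM replicate 1. Desmoplakin, encoded by Dsp, had 137 ± 4.39 in the KSFM-Ca2+ cells and 331 ± 4.26 in the DKSFM cells (log2 fold change 1.27). Tjp3, a tight junction scaffold, had 0.131 ± 0.0618 and 2.82 ± 0.851 (log2 fold change 3.66), and it too had to differ to be tested, with no KSFM-Ca2+ library at the filter value.

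Snail and ZEB factors bind the E-box CACCTG, which reads CAGGTG on the other strand. It was searched on both strands in the 250 bases before each start in RefSeq (GRCm38.p6), where 17.2% of all 32851 windows held it. Among epithelial junction genes, 11 of 24 windows held it, in 9 of 16 genes with a window. Windows of a gene can overlap and share sites, as those of Crb3 did. Among mesenchymal genes it was in 0 of 16 windows, and among the EMT regulators in 1 of 9 windows, that of Snai1. The motif was also in 0 of 17 windows of corepressor partners, in 0 of 13 of other EMT factors, in 0 of 13 of TGF-beta inputs and in 2 of 16 of splicing regulators. It was in 4 of 12 windows of epithelial identity factors, in 4 of 13 of filament genes, in 5 of 18 of ESRP targets and in 2 of 5 of keratinocyte markers. The junction and mesenchymal lists were thus not the only ones far from the share of all windows. Snai2, Zeb1, Esrp1, Esrp2 and Cdh1 were not in the set of windows used here. The windows below are those of Epcam and Cldn4, which fell, of Tjp3, which rose, and of the regulators Snai1 and Twist2. Capitals mark the E-box, and each sequence is written on the strand of its gene. A match is a description of the letters only and does not show binding.
Epcam chr17:87635729-87635978 (+): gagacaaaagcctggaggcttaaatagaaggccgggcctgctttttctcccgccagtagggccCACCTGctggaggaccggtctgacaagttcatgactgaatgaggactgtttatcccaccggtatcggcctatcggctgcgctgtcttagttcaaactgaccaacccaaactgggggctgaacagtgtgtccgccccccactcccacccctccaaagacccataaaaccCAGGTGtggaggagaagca
Cldn4 chr5:134946935-134947184 (-): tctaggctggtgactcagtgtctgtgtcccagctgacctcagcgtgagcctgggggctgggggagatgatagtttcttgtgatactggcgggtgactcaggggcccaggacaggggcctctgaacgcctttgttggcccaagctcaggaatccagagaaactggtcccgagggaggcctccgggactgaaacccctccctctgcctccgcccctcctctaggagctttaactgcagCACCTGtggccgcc
Tjp3 chr10:81291582-81291831 (-): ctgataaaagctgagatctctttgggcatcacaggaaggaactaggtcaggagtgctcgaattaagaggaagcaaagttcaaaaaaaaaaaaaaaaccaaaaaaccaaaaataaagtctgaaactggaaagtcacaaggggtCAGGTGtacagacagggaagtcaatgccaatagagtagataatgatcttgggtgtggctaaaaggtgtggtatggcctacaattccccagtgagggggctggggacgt
Snai1 chr2:167537945-167538194 (+): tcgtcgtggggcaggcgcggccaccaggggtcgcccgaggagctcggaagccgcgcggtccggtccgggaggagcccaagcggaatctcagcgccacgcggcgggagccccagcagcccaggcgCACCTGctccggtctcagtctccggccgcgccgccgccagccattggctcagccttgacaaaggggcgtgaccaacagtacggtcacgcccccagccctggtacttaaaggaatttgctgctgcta
Twist2 chr1:91801211-91801460 (+): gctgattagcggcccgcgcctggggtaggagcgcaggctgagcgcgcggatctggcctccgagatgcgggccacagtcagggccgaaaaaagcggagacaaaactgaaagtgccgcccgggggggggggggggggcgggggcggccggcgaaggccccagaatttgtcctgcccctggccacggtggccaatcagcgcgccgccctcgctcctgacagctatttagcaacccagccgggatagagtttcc

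Epcam held the E-box at 187 and 19 bases before its start, Cldn4 at 14, Tjp3 at 108 and Snai1 at 126, and Twist2 held none. A second Tjp3 window, not shown, held it at 17. Of the other junction genes that were called, Crb3 held the same 3 in each of its 2 overlapping windows and Dsp held none. The called junction genes with the motif were thus Epcam, Cldn4 and Crb3, lower in the DKSFM cells, and Tjp3, higher in them. Over all lists, the motif was found before 7 of 23 genes called higher, 4 of 7 called lower and 12 of 69 called neither way, so it occurred with both directions.

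Among mesenchymal genes, 5 of 16 tested genes were called higher (Lox, Lgals1, Tgfbi, Mmp2 and Fn1) and 1 lower, with a median of 0.57. Lox, which encodes a collagen cross-linking enzyme, was listed at 0 in every KSFM-Ca2+ library and had a coverage of 352, 353 and 371 in the DKSFM libraries, through which alone it passed the filter, so it had to differ. Lgals1, which encodes galectin-1, had 1.32 ± 0.549 in the KSFM-Ca2+ cells and 42.5 ± 7.58 in the DKSFM cells (log2 fold change 4.96). Fibronectin, encoded by Fn1, rose from 7.55 ± 0.529 to 32.8 ± 2.33 (log2 fold change 2.11). Cdh2, which encodes N-cadherin, had 0.457, 0.494 and 0.944 in the KSFM-Ca2+ libraries and 0.212, 0.2998 and 0.212 in the DKSFM libraries. It was not tested, and the DKSFM libraries were the lower ones. Of the 24 listed genes, 4 were at 0 in all libraries (Cnn1, Spock1, Nes and Loxl1), and Acta2, Tagln and Cdh11 were near 0. The scatter of junction and mesenchymal genes shows both lists.

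**Figure D3:**
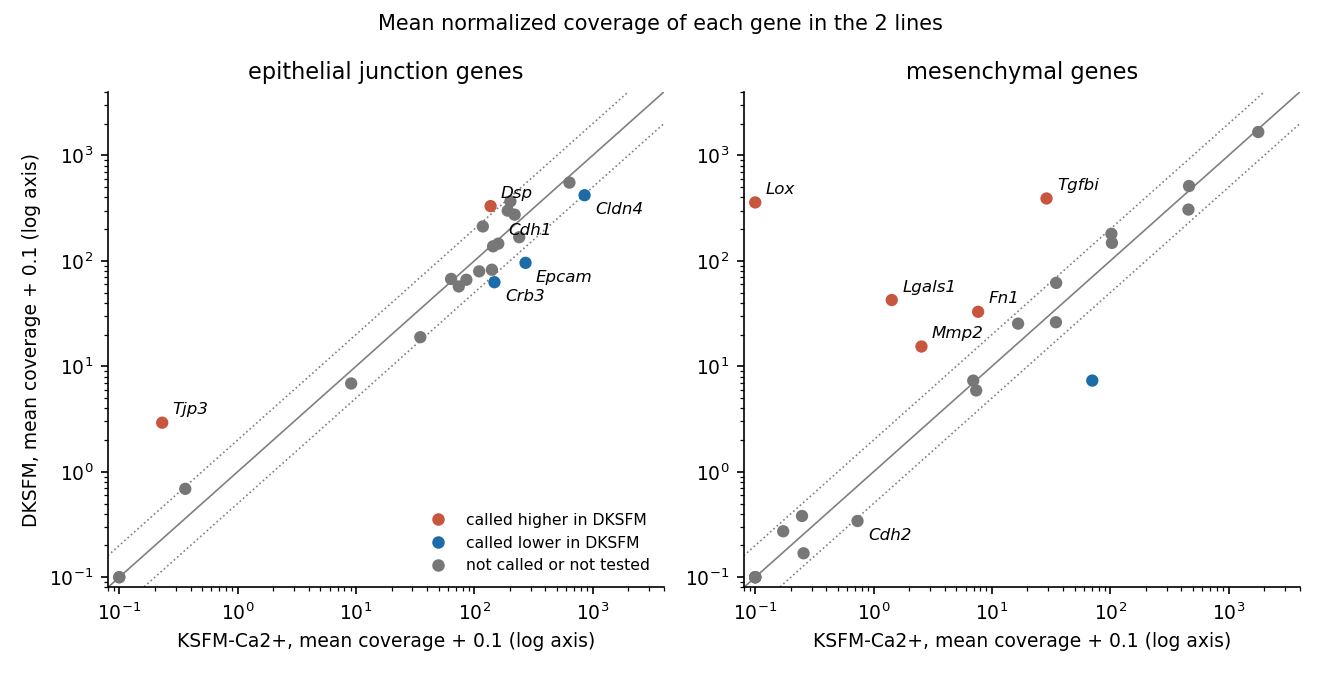
Mean normalized coverage + 0.1 in the KSFM-Ca2+ cells (x, log axis) and the DKSFM cells (y, log axis) for 23 epithelial junction genes and 24 mesenchymal genes. Points are genes, red if called higher in the DKSFM cells, blue if called lower and grey otherwise, with a solid line at equality and dotted lines at 2-fold. Cdh1 lies near equality, and Lox lies at the left edge because its KSFM-Ca2+ libraries were at 0.

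Vimentin belongs to the intermediate filament proteins, and its partners and relatives had 4 of 8 tested genes called higher and 1 lower, with a median of 1.055. Those called higher were all keratin genes: Krt8, Krt18, Krt5 and Krt14. Krt8, a keratin of simple epithelia, had a coverage of 0.152, 0 and 0.118 in the KSFM-Ca2+ libraries and of 70.3, 64.7 and 68.5 in the DKSFM libraries, and its partner Krt18 had 0.0762, 0 and 0 and then 23.4, 20.5 and 19.8. Both were near 0 in the KSFM-Ca2+ cells, passed the filter only through the DKSFM libraries and so had to differ to be tested. Krt14 lost its call with quantile normalization (log2 fold change 0.95). Lmnb1, a nuclear lamin, had 119 ± 1.05 and 58.2 ± 2.63 (log2 fold change -1.03) and lost its call without DKSFM replicate 2 (log2 fold change -0.99) and with quantile normalization (-0.99). The filaments of mesenchymal, glial and nerve cells were scarce. Gfap and Nes were at 0 in all 6 libraries, Prph and Synm were near 0, and desmin (Des) had 0.683 ± 0.233 in the KSFM-Ca2+ cells and 0.0354 ± 0.0613 in the DKSFM cells.

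Other splicing regulators, such as Ptbp1, Rbfox2 and the Mbnl genes, had 0 of 11 tested genes called in either direction by limma, with a median of -0.13, and the same 9 of the 11 passed the adjusted p, with less than 2-fold, and an unadjusted p under 0.05. Qki is not analysed here. Genes known to be spliced by ESRP proteins had 3 of 13 called higher (Fgfr2, Magi1 and Arhgef10l) and 1 lower (Cd44), with a median of 0.04. Fgfr2, a receptor with epithelial and mesenchymal splice forms, had a coverage of 46.5 ± 2.72 in the KSFM-Ca2+ cells and 309.8 ± 7.88 in the DKSFM cells (log2 fold change 2.74). Cd44, a hyaluronan receptor with variable exons, had 1200.1 ± 52.8 and 432 ± 19.9 (log2 fold change -1.47). Magi1, a junction scaffold, had 5.50 ± 1.01 and 28.7 ± 0.968 (log2 fold change 2.38). Coverage was given per gene, so which splice forms were made could not be seen.

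Upstream, TGF-beta and other receptor inputs had 3 of 18 tested genes called higher (Tgfb2, Egfr and Ski) and 2 lower (Tgfb1 and Tgfbr3), with a median of -0.36. Tgfb2 passed the filter only through the DKSFM libraries and lost its call with the larger pseudocounts. The ligand gene Tgfb1 had a coverage of 59.4, 59.8 and 59.9 in the KSFM-Ca2+ libraries and of 23.1, 20.1 and 24.8 in the DKSFM libraries. The co-receptor gene Tgfbr3 had 13.8 ± 1.05 in the KSFM-Ca2+ cells and 5.52 ± 0.655 in the DKSFM cells (log2 fold change -1.31). Both were lower in every DKSFM library. Ski, a repressor of SMAD proteins, had 32.7 ± 1.34 and 66.6 ± 1.78 (log2 fold change 1.02), and Egfr, the receptor of epidermal growth factor, had 18.5 ± 0.210 and 46.9 ± 1.97 (log2 fold change 1.33). The plot of fold changes by list sets these lists beside the regulators.

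**Figure D4:**
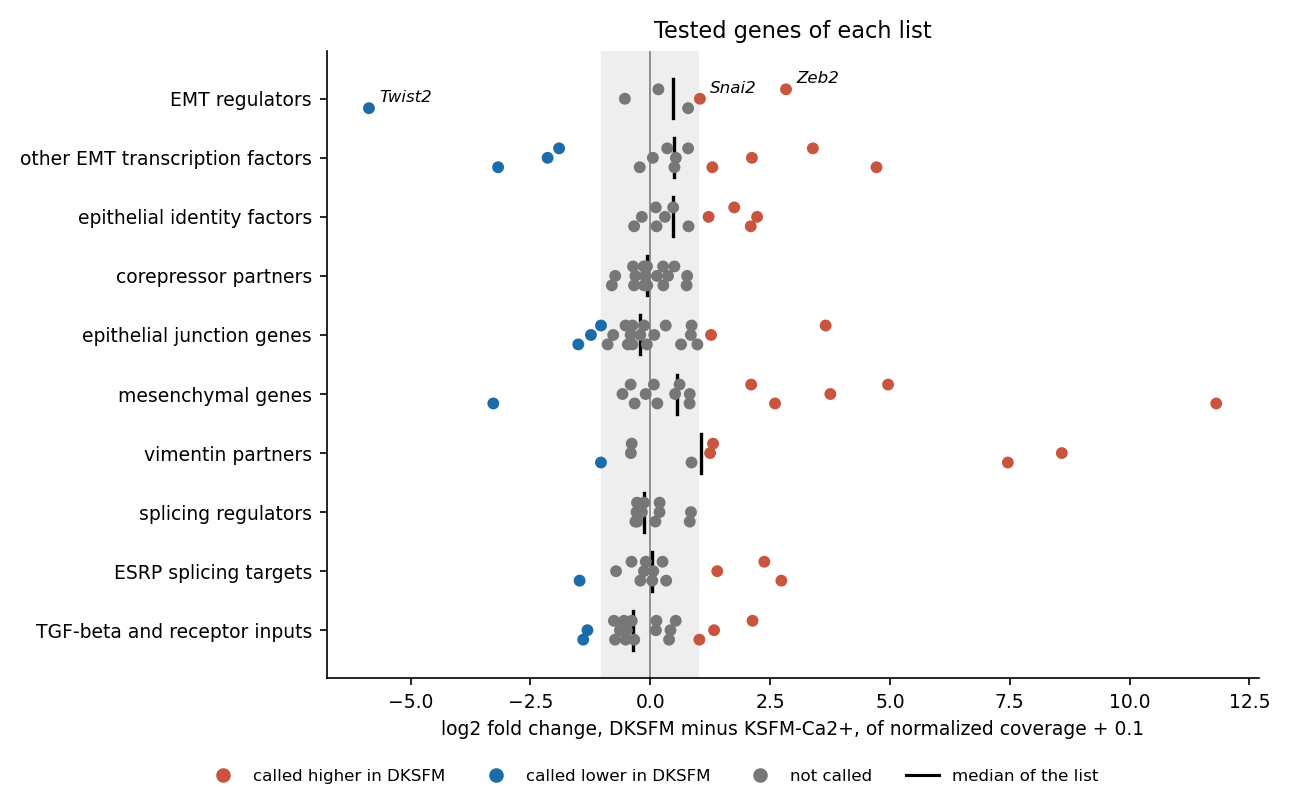
Log2 fold change (DKSFM minus KSFM-Ca2+, x axis) of each tested gene in the EMT regulators and 9 other lists (y axis). Points are genes, red if called higher in the DKSFM cells, blue if called lower and grey if not called, with black bars at the list medians and grey shading between -1 and 1. Twist2 is the lowest point of all lists, and the corepressor partners and splicing regulators lie within the shading.

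Since mesenchymal genes are also expressed by other cells of the skin, their markers were summed in each library. Of 11 fibroblast markers, 8 were at 0 in all 6 libraries, among them Col1a1, Col1a2, Col3a1, Dcn, Lum and Thy1. The summed coverage of the list was 1.83, 1.29 and 1.42 in the KSFM-Ca2+ libraries and 22.6, 23.4 and 18.6 in the DKSFM libraries, mostly Pdgfra in the former and mostly Postn in the latter. The 8 melanocyte markers summed to 4.12, 3.96 and 4.60 and to 17.3, 18.8 and 18.3, mostly Mitf, and Tyr, Dct and Kit were at 0 throughout. Immune markers (9 genes, mostly Cd68) summed to 12.1, 12.7 and 14.5 and to 13.7, 19.0 and 20.7, with Itgax and Cd3e at 0. Endothelial markers (6 genes, mostly Pecam1) summed to 2.82, 3.16 and 3.30 and to 8.28, 8.29 and 7.42, with Cdh5, Vwf and Emcn at 0. One gene of the fibroblast, the melanocyte and the endothelial list each was called higher (Postn, Mitf and Pecam1), and 1 of the immune list was called lower (Cd74). Cd74 had to differ to be tested, with every DKSFM library at 0, and Postn had only 1 KSFM-Ca2+ library above the filter value. Whether other cells had a part in the levels of Zeb2, Lox or Lgals1 was not tested beyond these sums. All 10 keratinocyte markers were tested, 3 were called higher and 1 lower, and their summed coverage was 21789, 22159 and 21711 in the KSFM-Ca2+ libraries and 50630, 46938 and 51135 in the DKSFM libraries, with Krt14 the highest.

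The tested regulators lie on 6 chromosomes (GENCODE M21, GRCm38). The median difference of the genes around some of them, or on their whole chromosome, was shifted from that of all tested genes. Snai2 (chr16:14705852-14709385) lies in a 20-Mb window where the median of 124 other tested genes, counted from that of all tested genes, was 0.51 on the log2 scale. For Esrp2 (chr8:106130319-106136974) the median of 137 genes was -0.51, against its own 0.79, and for Twist2 (chr1:91801461-91848028) that of 90 genes was -0.30. It was 0.07 over 26 genes for Zeb2 (chr2:44983632-45117395), 0.28 over 46 genes for Twist1 (chr12:33957671-33959829) and 0.28 over 44 genes for Esrp1 (chr4:11331933-11386783). The medians of the whole chromosomes were 0.25 for Snai2, -0.43 for Esrp2, -0.42 for Twist2, 0.01 for Zeb2, 0.06 for Twist1 and 0.14 for Esrp1, so the shifts around Twist2 and Esrp2 were much like those of their chromosomes. The differences of Snai2 and Twist2 had the direction of their neighbours and were larger than the median, while those of Esrp2 and Twist1 ran against their neighbours. Esrp1 also had the direction of its neighbours, but its difference of 0.17 was smaller than their median of 0.28. The part of these shifts in the levels was not tested.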

How the data were processed

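Directional poly(A) libraries were sequenced as single reads of 85 bases, aligned to mm10 with STAR under a strand setting and quantified with Salmon by the authors, who compared the lines with DESeq2. The deposited signal is each gene's read coverage averaged over its bases, not scaled to library size. Since coverage is not a count, limma was used here. Libraries were scaled by trimmed means of M values without weights (trims of 30% and 5%), genes with at least 0.5 in at least 3 libraries were kept, and log2(coverage + 0.1) was fitted with an intensity trend and Benjamini-Hochberg adjustment over all tested genes. Fits were run in limma 3.58.1 under R 4.3.3 and plots drawn in matplotlib 3.10.9 under Python 3.11.15, and the procedure was tested on simulated data. Approximate reads are coverage times transcript length over read length. The members and lists were chosen with earlier results of these data known. Genes were named by rule: all 10 members, up to 2 called genes per list and direction with the largest fold change and a mean of at least 1, Cdh1, Epcam, Cdh2 and Fn1, the 3 nearest genes by Euclidean distance, and the highest gene of each marker list. The other called genes of a list, and list genes at or near 0, were named after their values were seen. Some genes that fall under these rules are not reported here. Alternatives were other scalings, filters, pseudocounts and thresholds, no trend, a replicate block, each library left out, and only the libraries with "combined" in their file names, a word the sources used here do not explain.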

Additional observations from a re-analysis of the deposited data

How the results depend on the processing

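Under every alternative that tested them, Snai2 and Zeb2 kept their call and Twist1, Esrp1 and Esrp2 their direction below 2-fold. The log2 fold change ranged from 1.01 to 1.09 for Snai2, from 1.99 to 3.17 for Zeb2, from -6.23 to -3.01 for Twist2, from -0.62 to -0.49 for Twist1, from 0.16 to 0.22 for Esrp1 and from 0.76 to 0.86 for Esrp2. The smaller values for Zeb2 and Twist2 came with a pseudocount of 1. Twist2 was called in the 15 alternatives that tested it, but in the main fit it had to differ to be tested. It was not tested, so that 0 regulators were called lower, with the filter on every library and with the combined libraries only, which leave 1 KSFM-Ca2+ library that is assumed to vary like the DKSFM libraries. With the filter on every library, 1032 genes in place of 1636 were called higher and 3 partners of vimentin in place of 5 were called, since fewer genes were tested. With no filter, Vim was also called higher (log2 fold change 1.61, adjusted p = 0.00751), while Zeb1 (0.61, adjusted p = 0.0646) and Snai1 (0.69, adjusted p = 0.323) were not. Each of these 3 was tested in that alternative only. Among marker lists, calls of keratinocyte markers fell from 4 to 2 with quantile normalization, the fibroblast call was lost with the filter on every library and became 2 without KSFM-Ca2+ replicate 3, and the immune call was lost with that filter and with the combined libraries. The other counts of calls, over all genes, the regulators and the lists, stayed within 1.5 times. Replicates with the same number did not deviate together (correlations of -0.01, 0.02 and -0.01 over genes), and not every library correlated best with its own number. With the replicate number as a block, 1641 genes were called higher and 1304 lower, and 2 regulators higher and 1 lower. Rounding to 0.1 limits Snai1, Zeb1, Vim and Twist2 in the DKSFM cells.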
